A study of Rattus norvegicus with 24 samples.

Results

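Meiosis is the pair of divisions by which germ cells form gametes, and it depends on a protein axis along each chromosome. The axis is built of cohesin rings that hold sister chromatids, in which SMC1B, REC8 and STAG3 replace mitotic subunits, and of the HORMAD and SYCP2 and SYCP3 proteins that lie along it. SYCP1 then zips paired chromosomes together, DMC1 carries out strand exchange at DNA breaks, STRA8 is a regulator that switches on meiotic entry in response to retinoic acid, and MEIOC sustains the meiotic programme. In rodents the first wave of male meiosis starts after the age at which these testes were taken, so the neonatal testis holds gonocytes and spermatogonia before meiosis. Here 10 genes of this machinery were chosen by name, Smc1b, Rec8, Stag3, Hormad1, Sycp2, Sycp3, Sycp1, Dmc1, Stra8 and Meioc, and all 10 were among the 21425 genes with values.

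Messenger RNA was profiled in 24 libraries from a culture model of the newborn testis, seeded with all testis cells of wild-type Sprague Dawley rats at postnatal day 5, with no cell type enriched or depleted, in a matrix gel and serum-free medium. The baseline experiment had 3 libraries each of the fresh isolate (called tissue here) and of cultures at days 3, 5 and 7, all from 1 litter and without hormone. These are technical replicates, so p-values of this experiment measure technical spread and not variation between litters. The induction experiment had 1 library per litter and time from 3 litters, each pooling replicate cultures, taken on day 10 of culture before hormone (0 h) and 2, 12 and 48 h after 50 mIU/mL luteinizing hormone (LH) and 20 mIU/mL follicle-stimulating hormone (FSH) were given in fresh medium. Hormone, medium change and further days of culture cannot be told apart, since untreated cultures of the later times were not analysed here. Expression is in CPM (counts per 1 M library reads) and takes no account of gene length, so levels are compared between libraries and not between genes. Libraries held 17.3 to 30.4 M reads in the baseline and 15.8 to 28.3 M reads in the induction experiment, and 1 read was worth 0.0329 to 0.0579 and 0.0353 to 0.0633 CPM. A value of 0 allows up to 3 reads, or 0.0987 to 0.174 CPM in the baseline and 0.106 to 0.19 CPM in the induction libraries, for counting error only. Levels were not tested between the experiments.

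The region before the annotated start was matched for 9 of the 10 genes in RefSeq (build GRCr8), Meioc being named only. In these 250 bases 3 motifs were searched on both strands, with the window's share among 33469 promoters beside each. They were TTCCCGC, an E2F-type motif, CACGTG, an E-box, and TCTCGCGA, which was added after the sequences had been seen. TTCCCGC lay in 4 of the 9, those of Smc1b, Stag3, Hormad1 and Sycp2, against 3.36% of all promoters. CACGTG lay in 2, those of Hormad1 and Sycp3, against 5.59%, and TCTCGCGA in 2, those of Smc1b and Stag3, against 0.747%. The following 5 are printed 5′ to 3′ because they belong to the cohesin subunits Smc1b and Stag3, the axis genes Hormad1 and Sycp3 and the entry gene Stra8, with any searched motif in capitals.
Smc1b (chr7:118122649-118122898, minus strand): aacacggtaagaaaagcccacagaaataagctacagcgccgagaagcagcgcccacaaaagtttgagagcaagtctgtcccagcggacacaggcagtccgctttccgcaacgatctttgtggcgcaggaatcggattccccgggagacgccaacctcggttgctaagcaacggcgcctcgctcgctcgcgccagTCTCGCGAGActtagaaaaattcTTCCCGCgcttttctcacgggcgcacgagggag
Stag3 (chr12:22398158-22398407, plus strand): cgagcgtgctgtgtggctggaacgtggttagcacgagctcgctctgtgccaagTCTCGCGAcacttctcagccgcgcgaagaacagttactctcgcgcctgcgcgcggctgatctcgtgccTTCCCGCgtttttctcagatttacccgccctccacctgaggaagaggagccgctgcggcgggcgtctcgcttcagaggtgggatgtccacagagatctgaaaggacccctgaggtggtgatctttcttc
Hormad1 (chr2:185805422-185805671, plus strand): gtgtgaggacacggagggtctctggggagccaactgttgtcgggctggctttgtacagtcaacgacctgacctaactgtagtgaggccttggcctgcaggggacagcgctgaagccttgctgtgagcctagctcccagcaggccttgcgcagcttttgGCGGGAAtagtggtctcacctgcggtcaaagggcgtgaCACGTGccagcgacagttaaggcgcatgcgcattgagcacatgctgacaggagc
Sycp3 (chr7:24761226-24761475, plus strand): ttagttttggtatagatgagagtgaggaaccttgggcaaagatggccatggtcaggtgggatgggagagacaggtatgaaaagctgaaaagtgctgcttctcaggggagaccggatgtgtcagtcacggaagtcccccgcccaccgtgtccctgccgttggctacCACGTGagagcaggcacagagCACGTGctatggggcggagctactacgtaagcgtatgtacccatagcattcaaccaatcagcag
Stra8 (chr4:64568330-64568579, plus strand): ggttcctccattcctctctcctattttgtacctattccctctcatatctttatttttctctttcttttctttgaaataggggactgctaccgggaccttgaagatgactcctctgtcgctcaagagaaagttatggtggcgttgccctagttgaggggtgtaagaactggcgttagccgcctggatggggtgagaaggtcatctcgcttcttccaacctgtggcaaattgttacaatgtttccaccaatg
In Smc1b the E2F-type motif ended 27 bases before the start, and TCTCGCGA occurred on both strands in overlapping copies. In Stag3 both motifs lay farther from the start. Hormad1 carried the E2F-type motif on the opposite strand and an E-box 54 to 49 bases before the start, and Sycp3 carried a pair of E-boxes. The promoters of Stra8, Dmc1, Rec8 and Sycp1 held none of the searched letters. GC content ran from 39.6% (Dmc1) to 61.6% (Sycp2) against a median of 51.2% over all promoters, and CpG counts from 6 (Stra8) to 26 (Smc1b) against a median of 5. These are letters in a window and show no binding.

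All 10 genes were lower in culture than in tissue when every gene with a read was fitted, and Stra8 was at 0 in all libraries of days 5 and 7. The comparison asks what culture does to the meiotic transcripts of the fresh isolate. With limma on log2(CPM + 1) and a filter of at least 1 CPM in at least 3 libraries, 7 of the 10 were tested, and all 7 were called lower (Benjamini-Hochberg adjusted p under 0.05) at day 3, day 5 and day 7, where 26.8%, 30.3% and 31.4% of the 13055 genes tested were called lower. Of these 7, Smc1b, Sycp3 and Stag3 would have passed the filter on culture libraries alone. The other 4, Hormad1, Dmc1, Sycp1 and Sycp2, passed through the tissue libraries, so their count is no support in itself. With no filter, all 10 were called lower in limma at each day, against 22.9%, 25.6% and 26.4% of 17945 genes, and the median of the 10 log2 fold changes was -1.94, -1.91 and -1.94, against -0.02, -0.04 and -0.04 over all genes. Without the filter, edgeR's quasi-likelihood test on whole reads called 9, 8 and 8 of the 10. The 3 comparisons share the same tissue libraries. In bulk RNA, fewer cells of a type and less RNA per cell cannot be told apart.

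Among the cohesin subunits, Smc1b replaces SMC1A on meiotic chromosomes. It had 29.9, 31.7 and 28.4 CPM in tissue, 2.19, 4.24 and 3.12 CPM at day 3, 2.20, 3.07 and 4.50 CPM at day 5 and 2.29, 4.03 and 2.84 CPM at day 7. Every tissue library lay far above every culture library, and the culture days overlapped. The mean was 9.43, 9.22 and 9.82 times lower at days 3, 5 and 7, with log2 fold changes of -2.92, -2.90 and -2.96 (each ± 0.23 SE, limma adjusted p of at most 3.01e-07). Stag3 encodes the meiosis-specific STAG subunit. It had 14.3, 21.8 and 18.9 CPM in tissue, 1.74, 3.13 and 2.86 CPM at day 3, 3.53, 3.59 and 1.59 CPM at day 5 and 1.84, 4.51 and 3.20 CPM at day 7. Its groups did not overlap between culture and tissue, with log2 fold changes of -2.44, -2.34 and -2.24 (each ± 0.29, limma adjusted p of at most 1.62e-05). Its span in GRCr8 overlaps a long non-coding RNA, whose reads could not be separated without strand. Rec8 encodes the meiotic kleisin that closes the cohesin ring. It had 0.921, 0.734 and 1.05 CPM in tissue (21, 16 and 32 reads), 0.0377, 0.258 and 0.159 CPM at day 3, 0.116, 0.645 and 0 CPM at day 5 and 0.172, 0.347 and 0.304 CPM at day 7. Its levels in culture were lower than in tissue in each library, but most of its day 5 reads, 16 of 18, came from replicate 2. The summed reads correspond to 6.07 (95% exact counting interval 3.19 to 12.7), 3.11 (1.83 to 5.56) and 3.26 (1.90 to 5.91) times lower levels than in tissue. Such counting intervals, here and for Dmc1 and Stra8 below, pool the reads of a group and leave out the spread between its libraries. Without a filter the log2 fold changes of Rec8 were -0.73, -0.63 and -0.58 (each ± 0.16, limma adjusted p = 0.00291, 0.00614 and 0.0102), and edgeR gave adjusted p = 0.0398, 0.132 and 0.159.

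**Figure D1:**
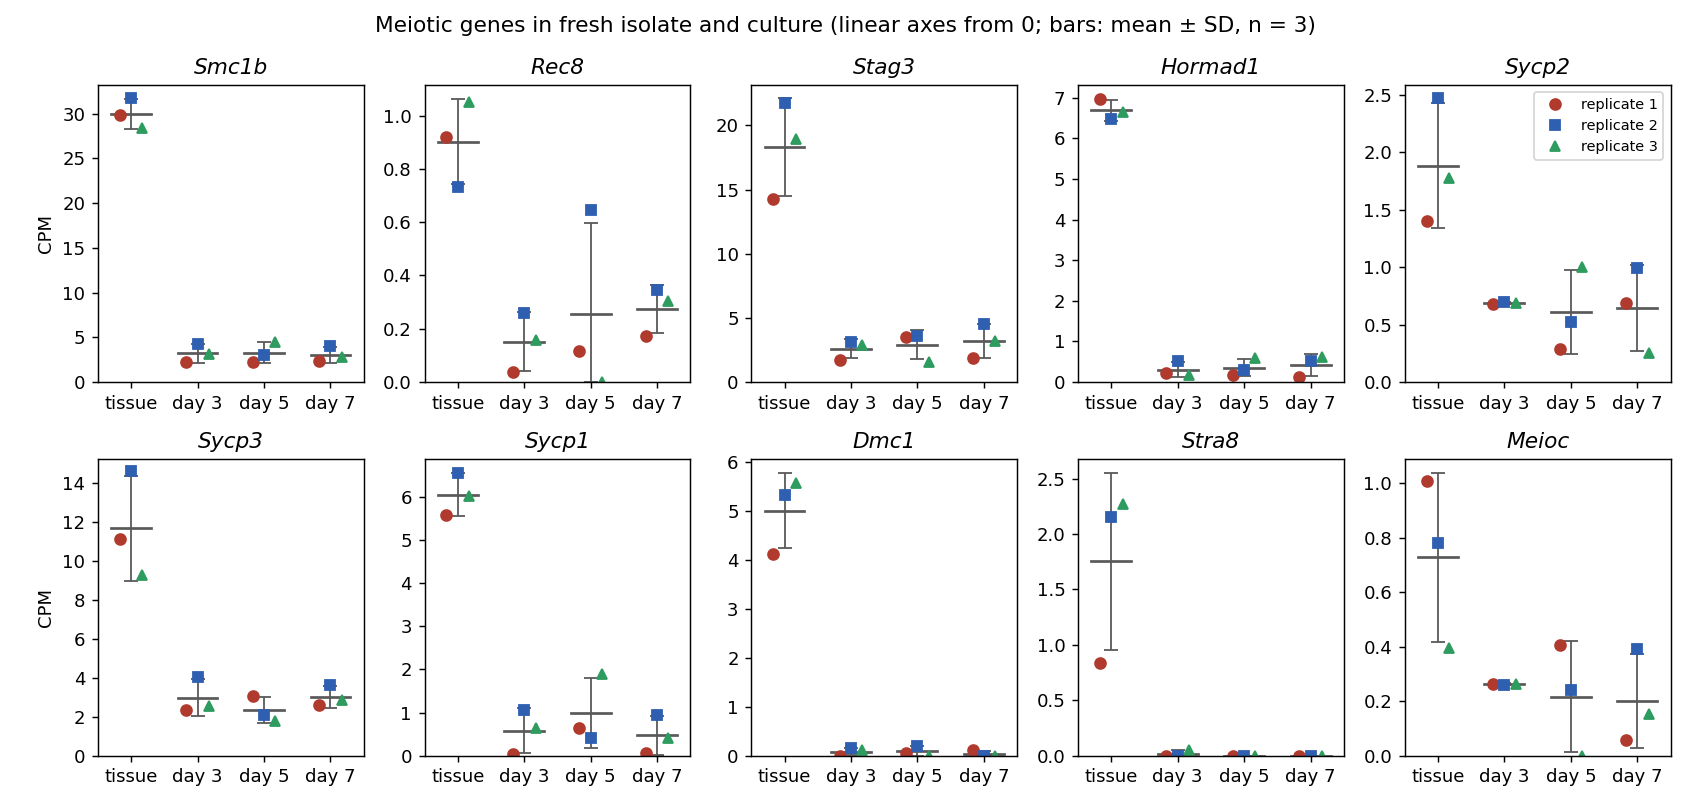
CPM of each of the 10 genes (linear axes from 0) in the tissue, day 3, day 5 and day 7 libraries of the baseline experiment, with 1 marker per replicate and bars for mean ± SD (n = 3). For 9 genes every tissue library lies above every culture library, and for Meioc day 5 reaches 0.406 CPM in culture against the lowest tissue library at 0.395 CPM.

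The subunits that form mitotic cohesin were set beside these genes. Smc1a, the counterpart of Smc1b, had log2 fold changes of -0.41, -0.61 and -0.58 (each ± 0.12, limma adjusted p = 0.00877, 0.000494 and 0.000721) at days 3, 5 and 7 against tissue. Stag1 was called lower at day 7 alone (-0.48 ± 0.15, adjusted p = 0.0130), as was Rad21, the mitotic counterpart of Rec8 (-0.32 ± 0.09, adjusted p = 0.00981), and Stag2 was called at no day (0.11, 0.29 and 0.02, each ± 0.16). Of 10 mitotic cohesin genes tested, 2, 2 and 4 were lower and 0, 1 and 0 higher at days 3, 5 and 7. The shares of all tested genes called lower were 26.8%, 30.3% and 31.4%. The difference itself was set out over 9 culture against 3 tissue libraries by a two-sided exact permutation test on the difference of log2(CPM + 1) values. The 6 pairs were chosen after the values had been seen, so the p-values describe the separation and are no independent support. The 9 culture libraries pool days 3, 5 and 7 as technical replicates of 1 litter. The Smc1b to Smc1a ratio was lower in culture by -2.39 on the log2 scale, the Stag3 to Stag1 ratio by -2.04 and the Stag3 to Stag2 ratio by -2.48, with no overlap between culture and tissue and exact p = 0.00455 each, the smallest that 220 arrangements can give (0.00682 adjusted over the 6). The ratio of Rec8 to Rad21 differed by -0.50 with overlapping ranges (exact p = 0.0364, adjusted 0.0436). The log2(CPM + 1) scale understates the change of low genes, of which Rec8 is the lowest here.

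**Figure D2:**
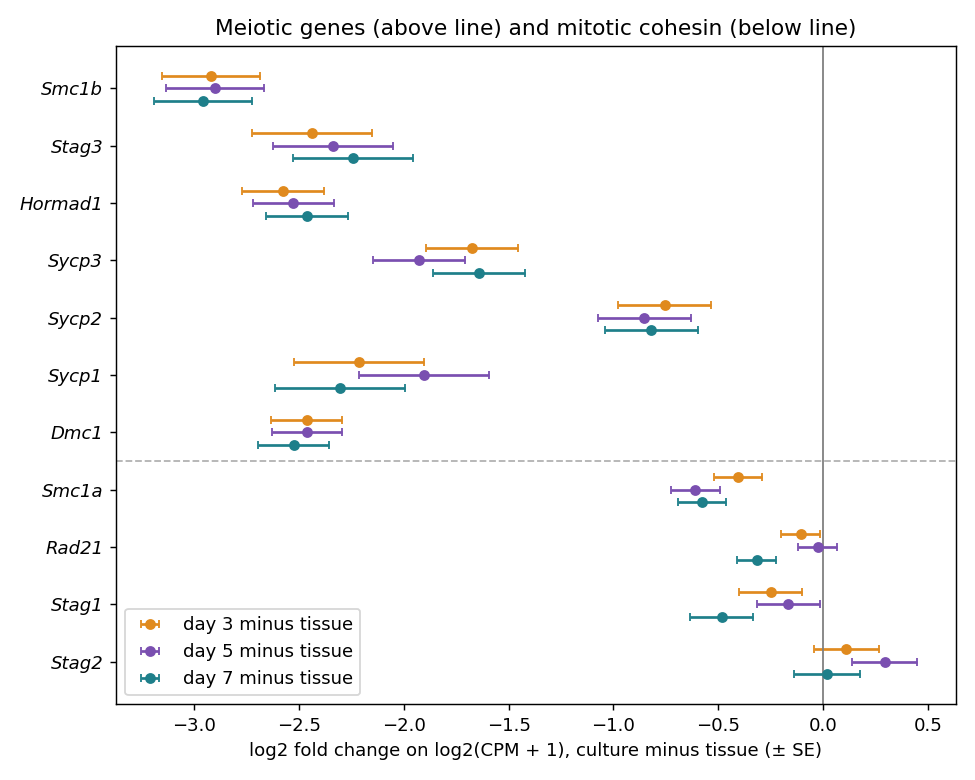
Log2 fold changes on the log2(CPM + 1) scale (x axis, culture minus tissue, bars ± SE) of the 7 tested meiotic genes above the dashed line and of 4 mitotic cohesin subunits below it, at days 3, 5 and 7. The meiotic genes lie between -2.96 (Smc1b) and -0.76 (Sycp2), and the mitotic subunits between -0.61 (Smc1a) and 0.29 (Stag2). The scale understates the change of genes low in culture, such as Hormad1 and Dmc1.

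The product of Hormad1 marks unsynapsed axes. Hormad1 had 6.97, 6.47 and 6.64 CPM in tissue, 0.226, 0.516 and 0.159 CPM at day 3, 0.174, 0.282 and 0.582 CPM at day 5 and 0.115, 0.520 and 0.609 CPM at day 7. Its highest culture library lay about an order of magnitude below its lowest tissue library, and its log2 fold changes were -2.57, -2.53 and -2.46 (each ± 0.19, limma adjusted p of at most 2.07e-07). The log2(CPM + 1) scale understates this change. In edgeR the log2 fold changes were -4.42, -4.24 and -3.92 for Hormad1 and -3.25, -3.19 and -3.24 for Smc1b. Its annotated span in GRCr8 overlaps that of Golph3l, which was higher in culture at day 3 (0.42 ± 0.10, adjusted p = 0.00396), and the libraries do not keep strand, so shared reads could not be separated. Sycp3 encodes a structural protein of the axis. It had 11.1, 14.6 and 9.28 CPM in tissue, 2.34, 4.05 and 2.54 CPM at day 3, 3.07, 2.10 and 1.80 CPM at day 5 and 2.58, 3.64 and 2.84 CPM at day 7. It kept 2.98 ± 0.938, 2.32 ± 0.665 and 3.02 ± 0.553 CPM at days 3, 5 and 7, against 11.7 ± 2.70 CPM in tissue (SD, n = 3 each), with log2 fold changes of -1.67, -1.93 and -1.64 (each ± 0.22, limma adjusted p of at most 2.73e-05). Its span overlaps Chpt1, which had -0.15 ± 0.13 (adjusted p = 0.326) at day 3. Sycp2 encodes the partner of SYCP3, and its span overlaps the pseudogene Akr1b1-ps3, whose reads could not be separated. It had 1.40, 2.48 and 1.78 CPM in tissue, 0.679, 0.700 and 0.687 CPM at day 3, 0.290, 0.524 and 1.01 CPM at day 5 and 0.688, 0.997 and 0.254 CPM at day 7. Its groups did not overlap either, and its fold changes were the smallest of the 7 tested genes, at -0.76, -0.85 and -0.82 (each ± 0.22, limma adjusted p = 0.0108, 0.00483 and 0.00611). Without tissue replicate 2 the day 3 call of Sycp2 was lost (-0.61, adjusted p = 0.0535). The means of Sycp2 were 2.74, 3.11 and 2.92 times lower in culture and those of Sycp3 3.91, 5.02 and 3.86 times lower. The Sycp2 to Sycp3 ratio was higher in culture by 0.94 on the log2(CPM + 1) scale (exact p = 0.00455), a scale that shrinks the change of the lower gene more.

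Sycp1 encodes the transverse filament of the synaptonemal complex. It had 5.57, 6.56 and 6.02 CPM in tissue, 0.0377, 1.07 and 0.634 CPM at day 3, 0.637, 0.403 and 1.90 CPM at day 5 and 0.0574, 0.954 and 0.406 CPM at day 7. Culture libraries spread widely, from near 0 to 1.90 CPM, yet stayed below the lowest tissue library. The log2 fold changes were -2.21, -1.90 and -2.30 (each ± 0.31, limma adjusted p of at most 0.000152). The Sycp1 to Sycp3 ratio had a difference of -0.39 between culture and tissue with overlapping ranges (exact p = 0.250). Dmc1 encodes the meiotic recombinase. It had 4.12, 5.32 and 5.56 CPM in tissue (94, 116 and 169 reads). In culture it summed to 6, 6 and 2 reads over the 3 libraries at days 3, 5 and 7. It was at 0 in 1 library of day 3, 1 of day 5 and 2 of day 7. The summed reads correspond to levels 61.1 (27.8 to 168), 51.3 (23.4 to 141) and 152 (41.8 to 1261) times lower than in tissue, with limma log2 fold changes of -2.46, -2.46 and -2.52 (each ± 0.17, adjusted p of at most 7.25e-08) that understate the change.

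The entry genes were counted in few reads even in tissue. Stra8 had 0.833, 2.16 and 2.27 CPM in tissue (19, 47 and 69 reads), 1 read in 1 library at day 3 and none in any library at days 5 and 7. Tissue replicate 1 was the low one of its group, and still far above culture. Against 135 tissue reads the single read of day 3 gives a level 131 times lower (95% exact counting interval 23.04 to 5196), and with a floor of 3 reads over the group the level was at least 36.6-fold lower at day 5 and at least 36.1-fold lower at day 7. Stra8 was called lower by limma without a filter at each day (adjusted p of at most 4.77e-05) and by edgeR (adjusted p of at most 0.000280). Meioc had 1.01, 0.780 and 0.395 CPM in tissue, 0.264, 0.258 and 0.264 CPM at day 3, 0.406, 0.242 and 0 CPM at day 5 and 0.0574, 0.390 and 0.152 CPM at day 7. Its groups overlapped at day 5 and were separated by little at day 7. Its log2 fold changes without a filter were -0.44, -0.50 and -0.52 (each ± 0.15, limma adjusted p = 0.0363, 0.0171 and 0.0147). These calls were lost in edgeR (adjusted p = 0.218, 0.149 and 0.144) and, at each day, without tissue replicate 1 (adjusted p = 0.154, 0.0838 and 0.0742) or tissue replicate 2 (0.113, 0.0641 and 0.0580). They were also lost at day 3 without any 1 of its 3 libraries (0.0799 to 0.0886), at day 5 without replicate 3 (0.0713) and at day 7 without replicate 1 (0.0651) or 3 (0.0504). Culture and tissue did not overlap for 10, 9 and 10 of the 10 genes at days 3, 5 and 7, against 32.5%, 33.3% and 37.6% of tested genes that were lower without overlap.

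Between the days of culture no member was called. At day 5 against day 3 the 7 tested genes had log2 fold changes of -0.25 to 0.31, at day 7 against day 5 -0.40 to 0.29 and at day 7 against day 3 -0.09 to 0.20, and 0 of 7 passed in limma, edgeR or DESeq2, with 0 at an unadjusted p under 0.05 in each. The shares of all tested genes called lower and higher were 0.0536% and 0.0613% at day 5 against day 3, 0.023% and 0.0536% at day 7 against day 5, and 2.44% and 1.36% at day 7 against day 3. Over the 7 genes the bounds of the 95% intervals reached -0.73 and 0.98, -1.07 and 0.76, and -0.76 and 0.81 in the 3 comparisons. The lower and upper bound of each pair came from different genes, and changes within a gene's interval were not excluded. For 0 of the 10 genes were a pair of culture days free of overlap. Over all tested genes 7.37%, 9.71% and 14.1% were lower and 5.32%, 5.65% and 6.38% higher without overlap at day 5 against day 3, day 7 against day 5 and day 7 against day 3. Every gene's tissue mean was above its means at days 3, 5 and 7, with Meioc overlapping tissue at day 5, and neighbours among the culture days did not differ beyond their spread.

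Beyond the 10 genes, lists chosen by function held further genes that were lower at days 3, 5 and 7. Genes can pass the filter through the tissue libraries alone, so counts among tested genes are no support, and counts of all listed genes in limma without a filter are given beside them. Over all genes 26.8%, 30.3% and 31.4% were called lower at days 3, 5 and 7 with the filter. Without it the shares were 22.9%, 25.6% and 26.4%. Of 7 other axis and meiotic cohesin genes tested, 5, 5 and 5 were lower and 1 higher at each day, and without a filter 9 of 13 were lower and 1 higher. Hormad2, the paralog of Hormad1, had -3.01 ± 0.25 at day 3, and Iho1, which binds HORMAD1 to place DNA breaks, had -1.57 ± 0.22. Terb1, which ties telomeres to the nuclear envelope, had -1.39 ± 0.29, and Trip13, which removes HORMADs from axes, had -1.01 ± 0.11 (adjusted p no higher than 0.00112, limma). Of 5 tested genes of the central element and its partners 4 fell at each day, and 5 of 6 without a filter, with Tex12 at -2.09 ± 0.18, Tex11 at -1.68 ± 0.33, Syce3 at -1.49 ± 0.17 and Syce1 at -1.46 ± 0.21 at day 3. Of 7 genes of DNA break formation 5, 5 and 4 fell without a filter. With it 4 of 5 fell at each day, Rec114, Mei1, Mei4 and Ankrd31, at -2.22 ± 0.25, -1.77 ± 0.17, -1.31 ± 0.17 and -0.86 ± 0.18 at day 3. Of 17 tested genes of strand exchange and crossing over 14, 16 and 15 fell and 0, 1 and 0 rose, and without a filter 15, 17 and 17 of 21 fell and 0, 1 and 0 rose. Among them Tex15 had 10.4 ± 3.76 CPM at day 3 and 96.3 ± 15.7 CPM in tissue (SD, n = 3 each), and Mnd1, a partner of DMC1 in strand exchange, had 5.44 ± 1.18 CPM at day 3 and 20.7 ± 1.21 CPM in tissue. Of 12 regulators of meiotic entry 5 fell and 1 rose at each day, with and without the filter. The median log2 fold change of these 12 was -0.16, 0.01 and -0.18 at days 3, 5 and 7. Their calls are not read as a fall of the list. Dazl, an RNA-binding protein that germ cells need to enter meiosis, fell by 3.65 ± 0.38 on the log2 scale at day 3 and Nanos2, which holds male germ cells back from meiosis in mice, fell by 0.90 ± 0.20. Cyp26b1, which breaks down retinoic acid, rose by 0.94 ± 0.09, 1.06 ± 0.09 and 1.13 ± 0.09 at days 3, 5 and 7 (limma adjusted p of at most 1.62e-06). At day 7 against day 3, where 0 of the 7 tested members was called, Trip13 (-0.55 ± 0.11, adjusted p = 0.0151), Mnd1 (-0.94 ± 0.17, adjusted p = 0.00976), Fignl1 and Zcwpw1 were lower.

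Markers of germ cells moved with the meiotic genes. Of 19 germ cell markers tested 17, 18 and 18 were lower at days 3, 5 and 7 and 0 higher, Ddx4, a germ cell RNA helicase, having 2.72 ± 1.64 CPM at day 3 and 38.9 ± 1.17 CPM in tissue (SD, n = 3 each). The germ cell markers, which include Dazl, summed to 140 to 186 CPM at day 3, 154 to 196 CPM at day 5 and 154 to 182 CPM at day 7, against 757 to 804 CPM in tissue. The 10 meiotic genes summed to 7.51 to 14.4, 10.5 to 11.4 and 7.92 to 15.4 CPM at days 3, 5 and 7, against 76.1 to 92.6 CPM in tissue. The meiotic sum was 5.37 to 7.88%, 5.67 to 7.18% and 5.15 to 8.45% of the germ cell sum at days 3, 5 and 7, against 10.0 to 11.5% in tissue, with no overlap. This share depends on the markers summed and was not tested. Ddx4 alone had 2.72, 2.52 and 1.80 CPM at days 3, 5 and 7, against 38.9 CPM in tissue. Dazl had 7.32, 12.5 and 9.52 CPM, against 93.8 CPM in tissue (means). Relative to the Ddx4 mean, the meiotic sum was larger in culture than in tissue at each day. Relative to the Dazl mean it was larger at days 3 and 7 and similar at day 5. The direction of the share thus turns with the marker used, and none of these ratios was tested. Sertoli cell and peritubular myoid cell markers moved the other way, with 9, 8 and 7 of 12 and 8, 8 and 8 of 9 higher. Of all 13055 genes tested, 3801, 3863 and 3725 were called higher at days 3, 5 and 7, and 3498, 3952 and 4102 lower. The Sertoli cell markers summed to 5966 to 7448 CPM in culture and 4008 to 4194 CPM in tissue, and the peritubular myoid cell markers to 3538 to 5445 CPM in culture and 1604 to 1785 CPM in tissue. Of 7 endothelial cell markers 4 were lower at each day and 1, 1 and 2 higher, and their sum was 144 to 173, 131 to 155 and 113 to 124 CPM at days 3, 5 and 7, against 105 to 119 CPM in tissue. Of 6 macrophage markers tested 2, 1 and 3 were lower and 1 higher at each day, and all 9 listed summed to 24.6 to 36.2, 26.6 to 32.1 and 20.5 to 23.9 CPM, against 49.4 to 60.5 CPM in tissue. Of 7 Leydig cell markers tested 3 were lower and 2 higher at each day, and all 8 listed summed to 270 to 323, 215 to 301 and 251.1 to 319 CPM, against 301 to 304 CPM in tissue. Cd163, a macrophage marker, was at 0 in every library of days 3, 5 and 7, and the Leydig cell marker Hsd3b2 was at 0 in every library of day 5. The part of these shifts in cell markers in the fall of the meiotic genes was not tested. Of 15 spermatocyte and spermatid markers 4 were tested, with Tex101 and Hspa2 lower at each day. All 15 summed to 26.1 to 28.8, 24.4 to 29.6 and 27.9 to 36.4 CPM at days 3, 5 and 7, against 51.5 to 62.6 CPM in tissue. The spermatid markers Acrv1, Prm2, Odf1 and Spata16 were at 0 in all tissue libraries. The other listed markers, Tnp1, Tnp2, Acr and Pgk2 among them, had reads in tissue.

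**Figure D3:**
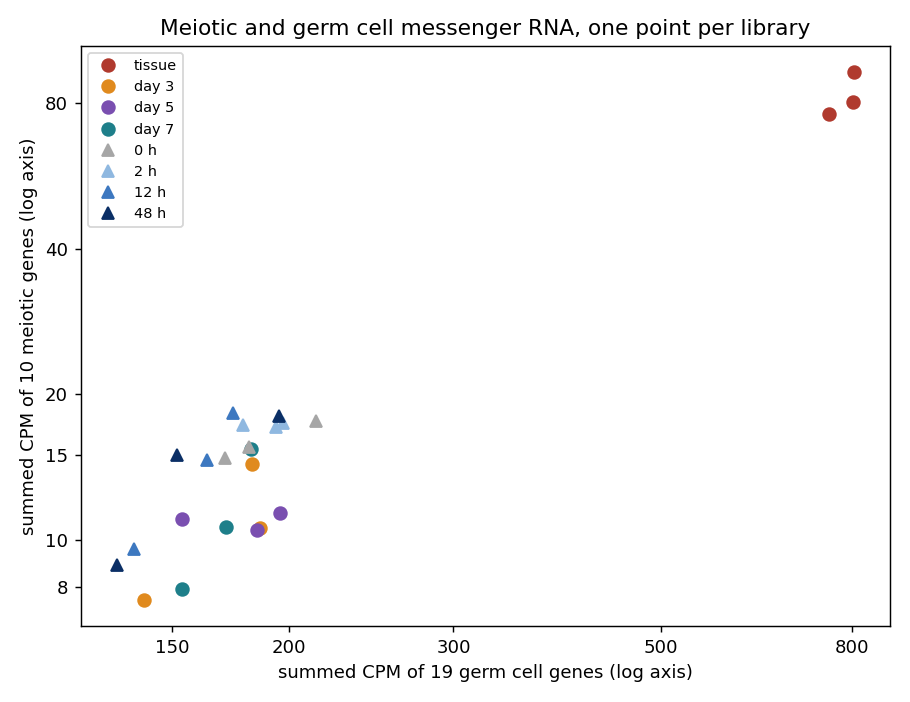
Summed CPM of the 10 meiotic genes (y, log axis) against summed CPM of 19 germ cell markers (x, log axis), 1 point per library, with circles for the baseline and triangles for the induction experiment. The 3 tissue libraries stand apart at the upper right (76.1 to 92.6 CPM), and the culture libraries of both experiments lie between 7.51 and 18.3 CPM.

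After LH and FSH none of the 10 genes was called at any time in limma by group, with or without the filter. With litter as a block and no filter, Sycp2 was called lower at 48 h against 2 h. The comparison asks whether the hormones change meiotic transcripts in cultures that had been kept for 10 days. Here 4 of the 10 passed the filter, Smc1b, Stag3, Sycp3 and Sycp1, and 0 of 4 were called in limma, edgeR or DESeq2 in any of 6 comparisons, with 0 at an unadjusted p under 0.05. Over all 12450 genes tested, 0.0% were called lower or higher at 2 and 12 h against 0 h, at 12 against 2 h and at 48 against 12 h, 0.0482% lower and 0.345% higher at 48 against 0 h, and 3.82% lower and 4.14% higher at 48 against 2 h. The labels pair the libraries by litter, and with litter as a block 0 of the 4 were called either. The blocked shares of all genes called lower and higher were 0.289% and 0.329% at 2 h against 0 h, 0.0% each at 12 h against 0 h, and 2.13% and 2.22% at 48 h against 0 h. They were 1.78% and 1.17% at 12 h against 2 h, 0.281% and 0.434% at 48 h against 12 h, and 11.8% and 10.3% at 48 h against 2 h.

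Smc1b had 2.16, 2.08 and 2.09 CPM at 0 h in litters 1, 2 and 3, 1.94, 2.05 and 2.20 CPM at 2 h, 2.39, 1.33 and 2.54 CPM at 12 h and 2.97, 1.31 and 1.66 CPM at 48 h. The litters were close together at 0 and 2 h and spread apart at 12 and 48 h, with litter 2 lowest. Its log2 fold change at 48 h against 0 h was -0.10 ± 0.21 (95% interval -0.56 to 0.36, limma adjusted p = 0.868). Stag3 had 8.29, 7.83 and 10.0 CPM at 0 h, 9.86, 9.98 and 9.76 CPM at 2 h, 8.10, 5.83 and 10.6 CPM at 12 h and 9.57, 4.99 and 9.23 CPM at 48 h, again with litter 2 lowest at the later times. Every 48 h library of Stag3 lay below every 2 h library (-0.33 ± 0.23, adjusted p = 0.396). Sycp3 had 1.63, 2.00 and 2.21 CPM at 0 h, 2.23, 2.09 and 1.92 CPM at 2 h, 1.84, 1.01 and 1.83 CPM at 12 h and 2.48, 1.19 and 1.30 CPM at 48 h. Its log2 fold change at 12 h against 0 h, -0.21 ± 0.20 (95% interval -0.66 to 0.23, limma adjusted p = 0.993), was the lowest of the 4 genes. Sycp1 had 0.575, 0.957 and 0.671 CPM at 0 h, 1.10, 0.925 and 0.916 CPM at 2 h, 0.737, 0.507 and 1.12 CPM at 12 h and 1.03, 0.238 and 0.651 CPM at 48 h, with -0.10 ± 0.20 at 48 h against 0 h (adjusted p = 0.860). Against 0 h the 4 genes had log2 fold changes of -0.02 to 0.20 at 2 h and -0.21 to 0.04 at 12 h. At 48 h they had -0.18 to -0.10. The bounds of their 95% intervals reached -0.48 and 0.66, -0.66 and 0.48, and -0.65 and 0.36 at these times. The lower and upper bound of each pair came from different genes.

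The other 6 genes did not pass the filter and had at most 24 reads in any library. Hormad1 had 0.766, 0.416 and 0.868 CPM at 0 h, 0.495, 0.779 and 1.10 CPM at 2 h, 0.460, 0.253 and 0.355 CPM at 12 h and 0.545, 0.594 and 0.947 CPM at 48 h. Its 12 h libraries were all below those of 2 h and of 48 h, and without a filter it had -0.39 ± 0.14 at 12 h against 2 h (limma adjusted p = 0.353). Sycp2 had 0.479, 0.749 and 0.552 CPM at 0 h, 0.565, 0.682 and 0.779 CPM at 2 h, 0.460, 0.253 and 0.650 CPM at 12 h and 0.303, 0.297 and 0.355 CPM at 48 h. Its 48 h libraries lay below all those of 0 h and of 2 h, and without a filter it had -0.27 ± 0.10 at 48 h against 0 h (adjusted p = 0.347) and -0.34 ± 0.10 at 48 h against 2 h (limma adjusted p = 0.0766). With litter as a block, a fit added after the data were seen, Sycp2 was called at 48 h against 2 h (-0.34 ± 0.10, adjusted p = 0.0463), where 7.01% of 17605 genes were called lower, and not at 48 h against 0 h (adjusted p = 0.173). Under looser filters than the main one, which kept Sycp2, its adjusted p at 48 h against 2 h was 0.154 and 0.173. Rec8 had 0.178 to 0.814 CPM over the 12 libraries, Dmc1 0 to 0.318 CPM (0 to 9 reads) and Meioc 0 to 0.718 CPM. Stra8 had 2 reads in litter 3 at 2 h, 2 reads in litter 3 at 48 h and none in the other 10 libraries. Without a filter or block limma called 0 of the 10 genes, against shares of all genes of 0.0% lower and 0.0795% higher at 48 h against 0 h, 2.39% lower and 2.33% higher at 48 h against 2 h and 0.0% in the other comparisons. At an unadjusted p under 0.05 it held Hormad1 at 12 h against 2 h and at 48 h against 12 h, and Sycp2 at 48 h against 0 h and against 2 h. Lower groups free of overlap were seen for Rec8 at 2 h against 0 h (7.91% of all tested genes), Sycp2 at 48 h against 0 h (12.0%), Hormad1 and Sycp3 at 12 h against 2 h (10.3%), and Sycp2 and Stag3 at 48 h against 2 h (14.6%), and a higher one for Hormad1 at 48 h against 12 h (7.42%).

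**Figure D4:**
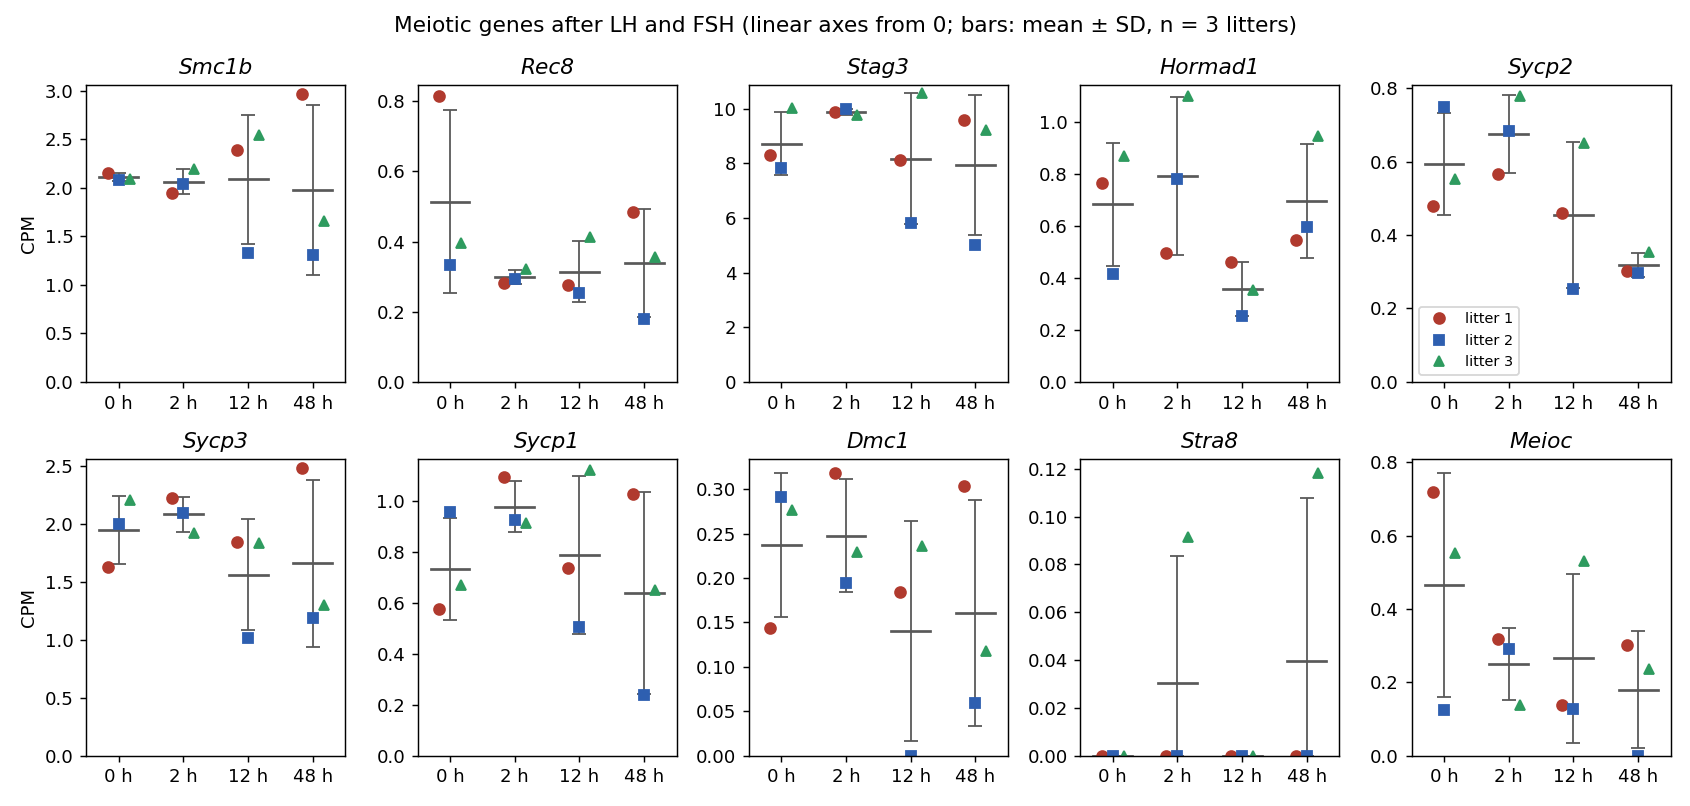
CPM of the 10 genes (linear axes from 0) at 0, 2, 12 and 48 h after LH and FSH, with 1 marker per litter and bars for mean ± SD (n = 3 litters). No gene had a called change in limma by group, and litter 2 is lowest for Smc1b, Stag3, Sycp3 and Sycp1 at 12 and 48 h.

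The 10 genes summed to 9.56 CPM in litter 2 at 12 h and 8.85 CPM at 48 h, against 14.6 to 18.3 CPM in the other litters at these times and 14.8 to 17.6 CPM over all litters at 0 h. The germ cell markers were also lowest in litter 2 at those times, at 137 CPM at 12 h and 131 CPM at 48 h. The part of litter 2 in the spread was not tested, and litter 2 was not left out as a whole. Leaving out 1 library at a time brought no call among the tested members. At 48 h against 2 h, limma called 4.14% of all tested genes higher and 3.82% lower. Higher there were 1 of 16 strand exchange genes, Brca2 (0.50 ± 0.12, limma adjusted p = 0.0273), a DNA repair gene, and 1 of 12 entry regulators. The latter was Mga (0.51 ± 0.11, adjusted p = 0.0190), which represses meiotic genes in mouse stem cells. Also higher were 1 of 10 mitotic cohesin genes and 2 of 9 peritubular myoid cell markers. Of 19 germ cell markers 1 was lower, the spermatogonial marker Id4 (-0.90 ± 0.20, adjusted p = 0.0218). Such single calls are not read as a result about the lists.

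Genes that varied most like the tested members were named by Pearson's r of log2(CPM + 1) with their mean z-score, as a description over libraries that share depth and source. Over the 9 culture libraries of the baseline experiment they were Epha5 (0.903), Tex11 (0.901), Mrpl35 (0.878), Trpm3 (0.862) and Reln (0.841). Over the 12 induction libraries they were the piRNA pathway gene Piwil2 (0.913), Kif19 (0.906), LOC100911002 (0.898), Mageb2 (0.897) and the piRNA pathway gene Tdrd12 (0.895). Among themselves the 7 members tested in the baseline experiment had a median r of 0.17 over the 9 culture libraries (-0.40 to 0.86, 15 of 21 pairs above 0), and the 4 tested in the induction experiment had 0.76 (0.73 to 0.82, 6 of 6 pairs).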

How the data were processed

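Per the labels' protocols, poly-T purified RNA was copied into non-directional libraries and sequenced on a NovaSeq system. STAR and the build mRatBN7.2 are named in the submitters' processing notes; versions, counting tool and annotation are not given in the sources used here. The CPM values were deposited by the authors for 21425 genes in 24 libraries. All were whole multiples of 1 read to within 0.01 read, so reads were recovered; 2.93 to 3.98% (baseline) and 4.25 to 4.71% (induction) of reads belonged to no listed gene.

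For each experiment limma 3.58.1 (R 4.3.3) was run on log2(CPM + 1) of its 12 libraries, by group without covariates, with moderated variances following the mean. A gene needed 1 CPM in at least 3 libraries, which kept 13055 and 12450 genes. P-values are two-sided, with Benjamini-Hochberg adjustment over all genes tested. The procedure was tested on simulated data. Alternatives were pseudocounts of 0.5 and 2, other filters and none, TMM scaling, a fit of the 2 groups only, each replicate left out, a replicate block, and edgeR 4.0.16 and DESeq2 1.42.0 on the recovered reads. Litters pair the induction libraries, per the labels: 18 same-litter pairs had a median correlation of residuals across genes of 0.482, and 16 were above 0.1.

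Named genes were all 10 members, 4 mitotic cohesin subunits, up to 4 called genes of each list and the 5 most alike per experiment; Chpt1 and Golph3l were added because they overlap members, and some called list genes were left out. Of list symbols Syce2, Top6bl, Meiosin, Prm1, Lin28a and Pecam1 were not analysed here. The members and lists were chosen with earlier results of these data known.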

Additional observations from a re-analysis of the deposited data

How the results depend on the processing

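Each comparison's count of called members stayed within 1.5 times of its main value under all alternatives run that change 1 choice, among them pseudocounts of 0.5 and 2, filters at 0.5 CPM or none, TMM scaling, edgeR and DESeq2. With one library left out at a time, 6 to 7 of the 7 tested members were called at day 3 against tissue, 7 at days 5 and 7, and 0 in each comparison between culture days or hormone times. For all 10 genes without a filter, alternatives added after the data were seen called 9 to 10 with one library left out and, in edgeR, 9 at day 3 and 8 at days 5 and 7. With the replicate block the counts were 7, 7 and 7 with the filter, 10, 10 and 10 without, and 0 in the other comparisons, except that without a filter litter as a block called 1 member, Sycp2, at 48 h against 2 h, where no block called 0. The block changed no other member's call. Baseline replicate numbers carried no pairing in the labels (18 same-number pairs, median correlation -0.000715). Of 336 single values of the 7 tested members against tissue, 335 kept their direction and call, the exception being Sycp2 at day 3. Without a filter Meioc and Rec8 also lost calls in edgeR, and Meioc with a library left out. Directions turned for uncalled mitotic subunits: with single libraries left out, Rad21 at day 5 against tissue ran from -0.0870 to 0.0235 and Stag2 at day 7 from -0.0753 to 0.136, and the cause was not tested. Depth limits Stra8, Dmc1, Rec8 and Meioc, whose levels in the baseline culture libraries rest on 0 to 16 reads each. It also limits Hormad1, with 2 to 14 reads in these libraries, and Sycp1 and Sycp2, which fell to 1 and 5 reads.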

Other observations

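The make-up of the meiotic sum differed between the experiments, which were not tested against each other. Stag3 held 54.5% of the summed CPM of the 10 genes at 0 h of the induction experiment, against 28.1% at day 7 and 22.1% in tissue of the baseline experiment, and Smc1b held 13.2%, against 27.0% and 36.2%. Smc1b, Stag3 and Sycp3 each had over 1 CPM in all 9 culture libraries of the baseline experiment. Dmc1 held 0.3% of the sum at day 7 and 6.0% in tissue. CPM takes no account of gene length, so each gene's share is compared between groups and not with that of other genes. The span of Stag3 overlaps a long non-coding RNA in GRCr8, whose reads could not be separated.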
